A study of Mus musculus with 30 samples.

Results

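Sperm DNA methylation was examined at 10 genes of the pluripotency network, Pou5f1, Nanog, Sox2, Klf4, Esrrb, Zfp42, Dppa3, Dppa5a, Lin28a and Prdm14. Each gene was represented by the CpGs from 3 kb before to 3 kb after its RefSeq gene body on build GRCm38 that had 10 or more reads, strands summed, in all 30 libraries. That rule gave 235 of the 416876 CpGs so covered in the genome, in 8 of the 10 genes. Methylation was read by reduced representation bisulfite sequencing (RRBS), which samples CpG-rich fragments and counts, at each CpG, reads that kept a methylated cytosine. The tested animals were 15 male C57BL/6J mice given cadmium, from cadmium chloride, at 0.9 ppm in reverse-osmosis drinking water. The controls were 15 male C57BL/6J mice that drank reverse-osmosis water with nothing added. All 30 were bought at 7 weeks of age, housed singly, fed the same low-fat diet and sampled after 9 weeks of treatment, with no genetic modification named in the labels. Each library is cauda epididymal sperm of a single mouse, and the study's question was whether drinking cadmium alters sperm DNA methylation.

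Pluripotency is the capacity of early embryonic cells to form every tissue of the body. OCT4 (encoded by Pou5f1), SOX2 and NANOG are transcription factors at its core, and KLF4, ESRRB and REX1 (encoded by Zfp42) belong to the naive state of the early epiblast. DPPA3 shields the maternal genome from loss of methylation in the zygote, DPPA5A and LIN28A bind RNA, and PRDM14 acts in naive cells and in the specification of germ cells. CpG methylation at a gene start commonly goes with silencing, and sperm hand their methylation to the zygote, where most of it is removed and set anew.

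Coverage summed over cytosines was, in units of 1e6, 57.9 to 79.8 per cadmium library and 53.6 to 94.1 per vehicle library, and the median CpG of the 8 genes had 65.5 reads. Libraries differed in measures that mark sperm DNA. Maternal germline imprints are unmethylated in sperm. They were read through genes listed for them, within 1 kb of the gene end with more CpGs. These windows were not placed on the imprints, and how far they cover them was not checked. Over 12 gene ends, kept because they averaged under 20% in these libraries (Mest at 28.4% and Plagl1 at 21.7% were left out), this maternal imprint level stood at 6.65% to 22.3% in cadmium libraries and 4.03% to 30.4% in vehicle libraries. The control region of H19, a paternally methylated imprint, stood at 70.2% to 96.5% in cadmium and 60% to 100% in vehicle libraries, over 4 CpGs. Mitochondrial DNA took 0.0127% to 0.0923% of coverage in cadmium and 0.0128% to 0.119% in vehicle libraries. Group means of these measures were close (maternal imprint level 14.4% ± 4.91 and 12.8% ± 7.98, mitochondrial share 0.0586% ± 0.0252 and 0.0584% ± 0.0342, cadmium and vehicle, SD, n = 15 each).

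The starts of these genes differ in how many CpGs they hold. The following stretches are RefSeq sequence of GRCm38.p6, 5′ to 3′ on the gene's strand, from Sox2 (chr3:34649745-34649994, plus strand, the 250 bases before the start), Klf4 (chr4:55532426-55532455, minus strand, from 20 bases after the start), Lin28a (chr4:134018777-134018806, minus strand, from 10 bases after the start), Esrrb (chr12:86360867-86361116 and chr12:86421394-86421643, plus strand, the 250 bases before its outer and its inner start) and Nanog (chr6:122707239-122707488, plus strand, the 250 bases before the start). They are shown because the low levels of Sox2, Klf4 and Lin28a, the contrast between the starts of Esrrb and the missing data of Nanog refer to them. Capitals mark the CpGs that were measured, and in Nanog every CpG.
Sox2: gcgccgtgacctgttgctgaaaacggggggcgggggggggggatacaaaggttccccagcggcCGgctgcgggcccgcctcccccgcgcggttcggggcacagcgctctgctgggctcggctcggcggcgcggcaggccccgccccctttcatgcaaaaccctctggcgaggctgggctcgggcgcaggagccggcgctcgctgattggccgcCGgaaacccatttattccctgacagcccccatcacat
Klf4: gagcgcggctcCGggCGCGCGgggagcaga
Lin28a: CGgacttctctggggccagcagcCGccCGa
Esrrb outer start: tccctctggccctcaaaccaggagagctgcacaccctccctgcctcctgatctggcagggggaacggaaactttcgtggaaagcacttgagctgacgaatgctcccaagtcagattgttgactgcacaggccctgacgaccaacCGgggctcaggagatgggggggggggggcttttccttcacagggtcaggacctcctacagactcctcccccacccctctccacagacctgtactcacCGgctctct
Esrrb inner start: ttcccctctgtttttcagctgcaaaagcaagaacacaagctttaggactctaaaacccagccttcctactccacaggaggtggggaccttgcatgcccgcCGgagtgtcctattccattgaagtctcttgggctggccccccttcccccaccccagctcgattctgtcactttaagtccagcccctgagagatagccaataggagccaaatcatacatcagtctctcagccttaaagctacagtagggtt
Nanog: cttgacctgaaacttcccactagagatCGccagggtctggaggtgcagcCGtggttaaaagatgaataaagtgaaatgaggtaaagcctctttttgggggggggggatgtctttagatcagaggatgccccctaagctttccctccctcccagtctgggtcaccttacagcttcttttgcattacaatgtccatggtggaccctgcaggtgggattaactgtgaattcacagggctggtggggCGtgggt

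The Sox2 stretch holds 27 CpGs in 250 bases and the Nanog stretch 3. RefSeq windows from 250 bases before to 50 after a start were at hand for 7 of the 10 genes, with 10 starts in all. The Klf4 window held 40 CpGs, more than 96.1% of the 32851 windows of all genes, and the Nanog windows held 4. The letters CCGG, searched in these windows and the same on both strands, were present at 7 of the 10 starts and in 52.8% of all windows, and in neither Nanog window. RRBS fragments are usually cut at CCGG, and the labels do not name the enzyme used for these libraries. No CpG of the Nanog window, on chromosome 6 from 3 kb before 122707489 to 3 kb after 122714633, was listed in 20 or more libraries, so Nanog could not be measured.

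Among the CpGs of the 8 genes, 166 (70.6%) averaged under 20% methylation, 43 (18.3%) lay from 20% to 80% and 26 (11.1%) over 80%. Over all 416876 CpGs the shares were 65.1%, 12.9% and 22.0%. At the partly methylated CpGs the median SD between libraries was 22.9 points, against 22.7 points over all such CpGs. No methylated read was seen in any library at 26 CpGs, of which 21 lay in Klf4, 4 in Lin28a and 1 in Esrrb. The 1208 to 3700 reads behind them allow a methylated share of up to 0.248% at the least covered and 0.0811% at the most covered, by counting error alone.

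Sox2, on chromosome 3 at 34649995 to 34652461, lies inside the longer noncoding gene Sox2ot and was read at 39 CpGs, none of which averaged above 9.10% over the 30 libraries. Its gene level, methylated reads over all reads of its CpGs, had a lowest, median and highest library of 0.108%, 1.87% and 3.84% in cadmium mice and 0.143%, 1.75% and 4.63% in vehicle mice. The groups overlapped over nearly their whole range. Just before its start, at the capitals of the printed stretch, the CpG at position -187 was at 0% in 15 cadmium libraries (500 reads, which allow up to 0.6%) and at 2.16% ± 7.48 in 12 vehicle libraries with 10 or more reads (SD). At position -37 the order was the other way, with 10% ± 31.6 in 10 cadmium libraries and 0% in 10 vehicle libraries (309 reads, which allow up to 0.971%). Neither was tested.

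Klf4, on chromosome 4 at 55527137 to 55532475, was read at 62 CpGs and was bare of methylation around its start. The 40 CpGs within 1 kb of a gene end averaged 0.269%, and the 4 CpGs in the capitals of its stretch averaged 0% to 2.10% in cadmium and 0% to 1.1% in vehicle libraries. Further into the gene the level climbed, to 5 CpGs at 2245 to 2654 bases from the start that averaged 36.1% to 69.1% in cadmium and 41.1% to 69.9% in vehicle libraries. The gene level had a lowest, median and highest library of 2.92%, 4.92% and 12% in cadmium mice and 2.04%, 5.71% and 10.3% in vehicle mice. Libraries of both groups were interleaved.

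Lin28a, on chromosome 4 at 134003330 to 134019196, had the same layout. CpGs from 1332 bases before to 1149 bases after its start averaged at most 4.90% in cadmium and 6.66% in vehicle libraries, and the 3 CpGs of its stretch averaged 0% to 0.763% in cadmium and 0.748% to 2.24% in vehicle libraries. A cluster of 5 CpGs at 6625 to 6712 bases inside the gene stood at 54.3% ± 15.3 in cadmium and 53.5% ± 11.8 in vehicle libraries (SD, n = 15 each). CpGs beyond it reached 98.9% ± 2.79 and 96.5% ± 9.13 in the same groups. Over the 38 CpGs the gene level ran from 16.0% over a median of 25.1% to 32.7% in cadmium mice and from 16.4% over 24.2% to 29.3% in vehicle mice.

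Esrrb, a gene of 160512 bp on chromosome 12 at 86361117 to 86521628, was read at 55 CpGs and differed between its RefSeq starts. Before the outer start, CpGs with 10 or more reads in fewer than 30 libraries stood at 57.4% ± 36.8 (n = 13) and 47.3% ± 30.4 (n = 15) in cadmium and 56.7% ± 27.8 and 61.4% ± 22.6 (n = 14 each) in vehicle libraries, at positions -106 and -9. Before the inner start, the CpG at position -150 stood at 5.93% ± 13.9 (n = 12) in cadmium and 3.93% ± 14.7 (n = 14) in vehicle libraries. From 296 to 1332 bases after the inner start no CpG averaged more than 6.22% in cadmium or 5.16% in vehicle libraries. At 2053 bases the level was 47.5% in cadmium and 40.1% in vehicle libraries, and at 7027 bases 95.2% and 97.3% in the same groups. The plot of single CpGs by distance from the start shows the same climb in Klf4, Lin28a and Esrrb and none at the CpGs read in Sox2. No Sox2 CpG was read between 1332 and 4040 bases after its start, so a climb there could not be seen.

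**Figure D1:**
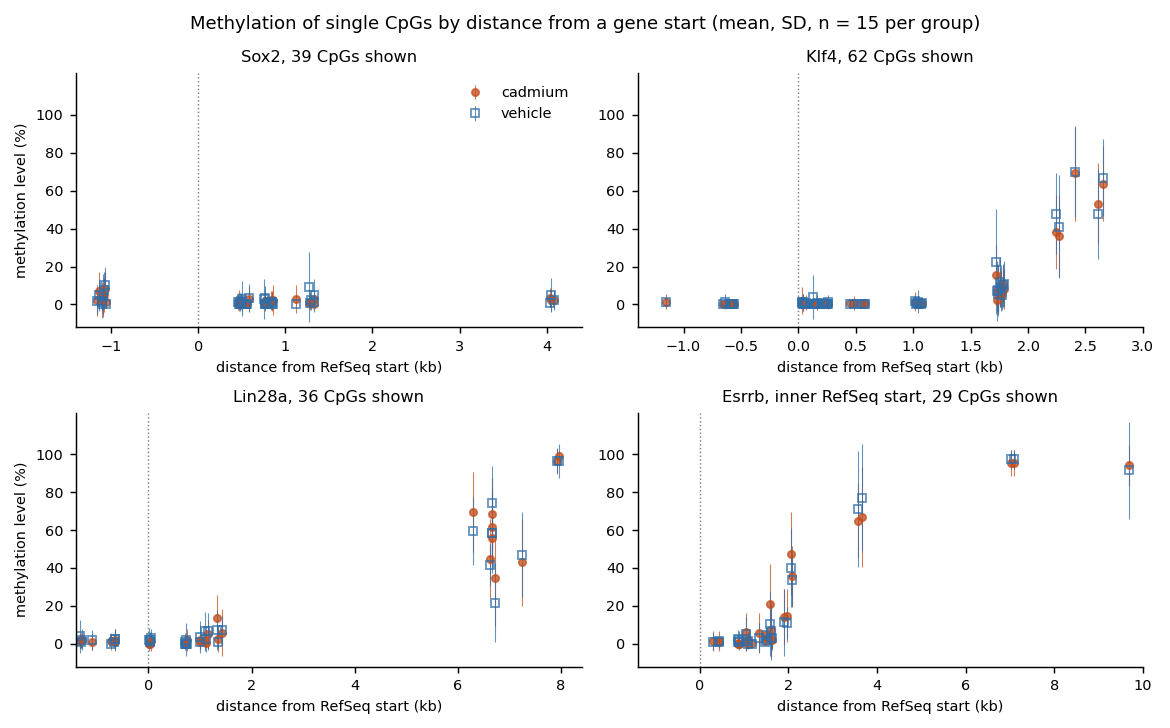
Mean methylation of single CpGs (y axis, %, with the SD of 15 libraries per group) by distance from a RefSeq start (x axis, kb, downstream to the right) for Sox2, Klf4, Lin28a and the inner start of Esrrb, cadmium as filled circles and vehicle as open squares. No Sox2 CpG shown averages more than 10.2% in either group, while the other genes climb from near 0% at the start to partly or fully methylated CpGs inside the gene, in both groups alike. Sox2 was not read between 1332 and 4040 bases after its start.

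At Esrrb, 3 CpGs with 1877 to 1907 reads each in the median library held 48.9% to 65.4% of the gene's reads. The gene level was therefore 24.7% ± 2.17 in cadmium and 24.0% ± 2.94 in vehicle libraries, whereas the unweighted mean over its CpGs was 44.4% ± 2.67 and 44.4% ± 2.75. Without the 3 CpGs, a choice made after seeing the data, the level was 54.1% ± 4.70 in cadmium and 52.6% ± 5.71 in vehicle libraries.

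Prdm14, on chromosome 1 at 13113428 to 13127163, was read at 14 CpGs. Of these, 13 averaged under 20%, and a CpG inside the gene stood at 31.4% ± 17.6 in cadmium and 41.8% ± 20.2 in vehicle libraries. Its gene level had a lowest, median and highest library of 0.399%, 5.29% and 10.1% in cadmium mice and 0.875%, 6.07% and 11% in vehicle mice. The ranges almost coincided.

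Pou5f1, on chromosome 17 at 35506032 to 35510777, had the highest level of the 8 genes measured in all 30 libraries and was read at 6 CpGs. Nearer its first start, CpGs with 10 or more reads in fewer libraries stood at 24.1% ± 32.6 (n = 13) and 17.4% ± 33.4 (n = 11) in cadmium and 17.4% ± 22.4 and 28.7% ± 35.6 (n = 13 each) in vehicle libraries, at 44 and 49 bases after it. A cluster of 4 CpGs 551 to 614 bases after its first start stood at 43.3% ± 12 in cadmium and 44.4% ± 18.7 in vehicle libraries, and CpGs further inside at 83.1% and 88.6% in cadmium and 82.7% and 90.0% in vehicle libraries. The gene level had a lowest, median and highest library of 43.8%, 59.3% and 75.3% in cadmium mice and 35.0%, 63.3% and 72.8% in vehicle mice. The lowest 4 libraries were all vehicle libraries, and otherwise the groups overlapped. Gm32362 and Tcf19 also reach into this window.

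Zfp42, on chromosome 8 at 43295067 to 43307009, was read at 13 CpGs near its ends, 12 of them partly methylated. Most of them lay at the end far from its start, in clusters of 3 and 7 CpGs at 11071 to 11339 bases after it. The CpG 881 bases after the start averaged 14.5% over the 30 libraries. Before the start, the CpGs at 43307573 and 43307812 were partly methylated. Over all libraries 746 of 2450 and 1635 of 4619 reads were methylated there. The gene level therefore does not describe the start of Zfp42 alone. The SD between libraries was the largest of the 8 genes (19.2 points), with a lowest, median and highest level of 6.92%, 31.6% and 68.4% in cadmium mice and 4.47%, 20.8% and 77.1% in vehicle mice. Dppa3, on chromosome 6 at 122626424 to 122630271, was read at 8 CpGs, 7 inside the gene and 1 in the flank, which averaged 85.4%. None lay within 1 kb of a gene end, so the gene level does not describe the start of Dppa3. Its levels were 15.9%, 27.5% and 52.4% in cadmium mice and 8.91%, 26.0% and 60% in vehicle mice, again the lowest, median and highest library. In bulk DNA a partial level cannot tell sperm methylated in part from a mixture of methylated and unmethylated cells. In both genes the groups overlapped, and vehicle libraries reached lower and higher than cadmium libraries, as the plot of gene levels shows. At Dppa3 the SD was 11.3 points in cadmium and 18.2 points in vehicle libraries.

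**Figure D2:**
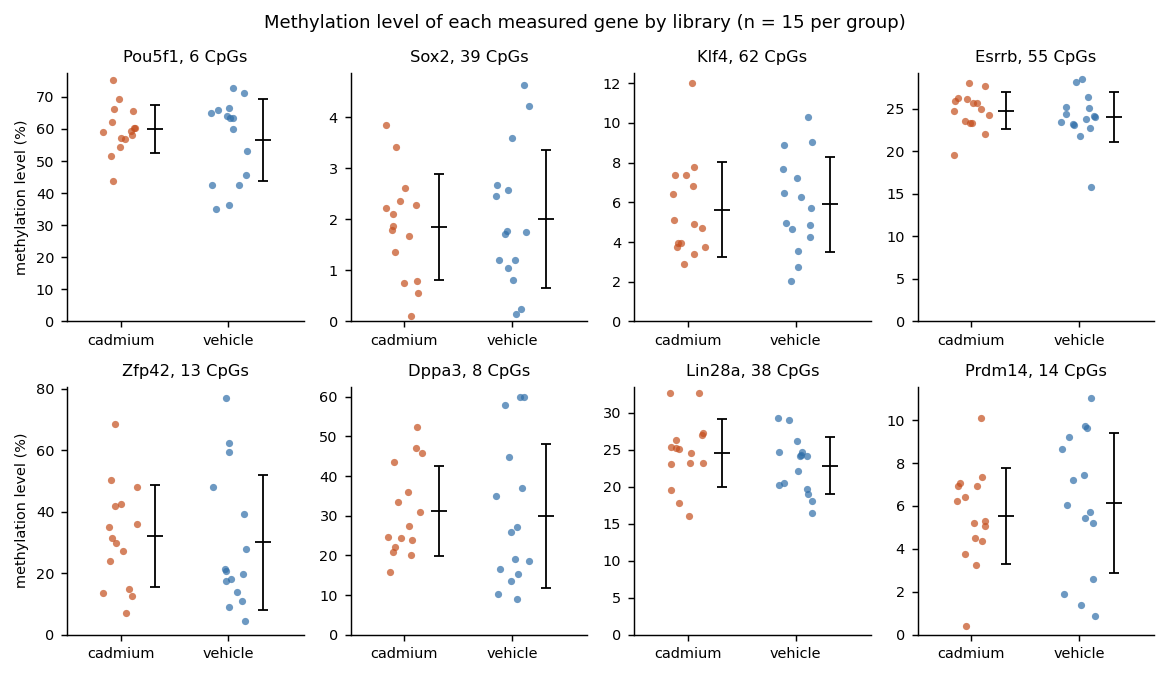
Methylation level of each measured gene (y axis, %, methylated reads over all reads of its CpGs) in every library, cadmium left and vehicle right, 15 libraries each, with the mean and SD in black beside the points. Zfp42 ranges from 6.92% to 68.4% in cadmium and from 4.47% to 77.1% in vehicle libraries, and at none of the 8 genes do the groups separate.

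Dppa5a, on chromosome 9 at 78367052 to 78368199, had no CpG with 10 reads in all 30 libraries. In 25 to 28 libraries with that coverage, 4 CpGs of its window averaged 94.8% to 100% in cadmium and 91.2% to 100% in vehicle libraries. All 4 were near full methylation and lay in the flanks outside the gene, at 78364727, 78364926, 78364950 and 78370022. No CpG inside Dppa5a was listed in 20 or more libraries, so the gene itself was not read.

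Ordered by gene level over the 30 libraries, Sox2 was lowest at 1.93% ± 1.19 (SD), followed by Klf4 at 5.76% ± 2.36, Prdm14 at 5.84% ± 2.77, Lin28a at 23.7% ± 4.26, Esrrb at 24.4% ± 2.57, Dppa3 at 30.6% ± 14.9, Zfp42 at 31.1% ± 19.2 and Pou5f1 at 58.2% ± 10.48. Neighbours were compared within libraries by a two-sided sign-flip permutation test with 100000 resamples, adjusted over 7 pairs. The order was picked from these same levels, so the p values do not test an order set in advance. Prdm14 and Klf4 (adjusted p = 0.931), Esrrb and Lin28a (0.62) and Zfp42 and Dppa3 (0.931) did not differ beyond their spread. Dppa3 exceeded Esrrb in 17 of 30 libraries (6.26 points, adjusted p = 0.0369), and the other 3 steps had p = 1e-05, the smallest the resampling can give. By the unweighted mean over CpGs the step from Esrrb to Dppa3 reversed, with Esrrb at 44.4% and Dppa3 at 30.1%. Esrrb then also stood above Zfp42 (10.4 points, adjusted p = 0.0241 by the same test).

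No difference between cadmium and vehicle mice passed the test at any of the 8 genes. The logistic model with a dispersion term called 0 of 24122 genes, a percent_called of 0, at a Benjamini-Hochberg adjusted p under 0.05. Of the 8 members, 0 had an unadjusted p under 0.05, in this model and in limma, against 4.86% and 3.68% of all genes. The difference, cadmium minus vehicle, was widest at Pou5f1 at 3.5 points with a 95% interval of -4.36 to 11.4 (60.0% ± 7.50 and 56.5% ± 12.8). It was 1.97 points without vehicle library 7 and 2.06 points without vehicle library 15, and -1.91 points as an unweighted mean over CpGs. At Zfp42 it was 2.17 points with an interval of -12.4 to 16.8 (32.2% ± 16.6 and 30.02% ± 22.1). Without cadmium library 13 it was -0.414 points, and without vehicle library 13 it was 5.53 points. At Dppa3 it was 1.30 points with an interval of -10.0 to 12.6 (31.3% ± 11.3 and 29.97% ± 18.2). Changes of that width could therefore not be told from none at these genes.

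At the other genes the intervals were narrower. The difference was -0.153 points at Sox2 (-1.05 to 0.747), -0.286 points at Klf4 (-2.08 to 1.5), -0.611 points at Prdm14 (-2.70 to 1.48), 0.764 points at Esrrb (-1.17 to 2.70) and 1.74 points at Lin28a (-1.43 to 4.91). The difference was above 0 at 5 genes and below 0 at 3, with a median of 1.03 points, beside 0.177 points over all genes. The adjusted p was 1 at each of the 8. The SD was larger in vehicle than in cadmium mice at Pou5f1, Dppa3 and Prdm14 among others, and a permutation test of the spread gave an adjusted p of 0.318 for these, the smallest of the 8.

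**Figure D3:**
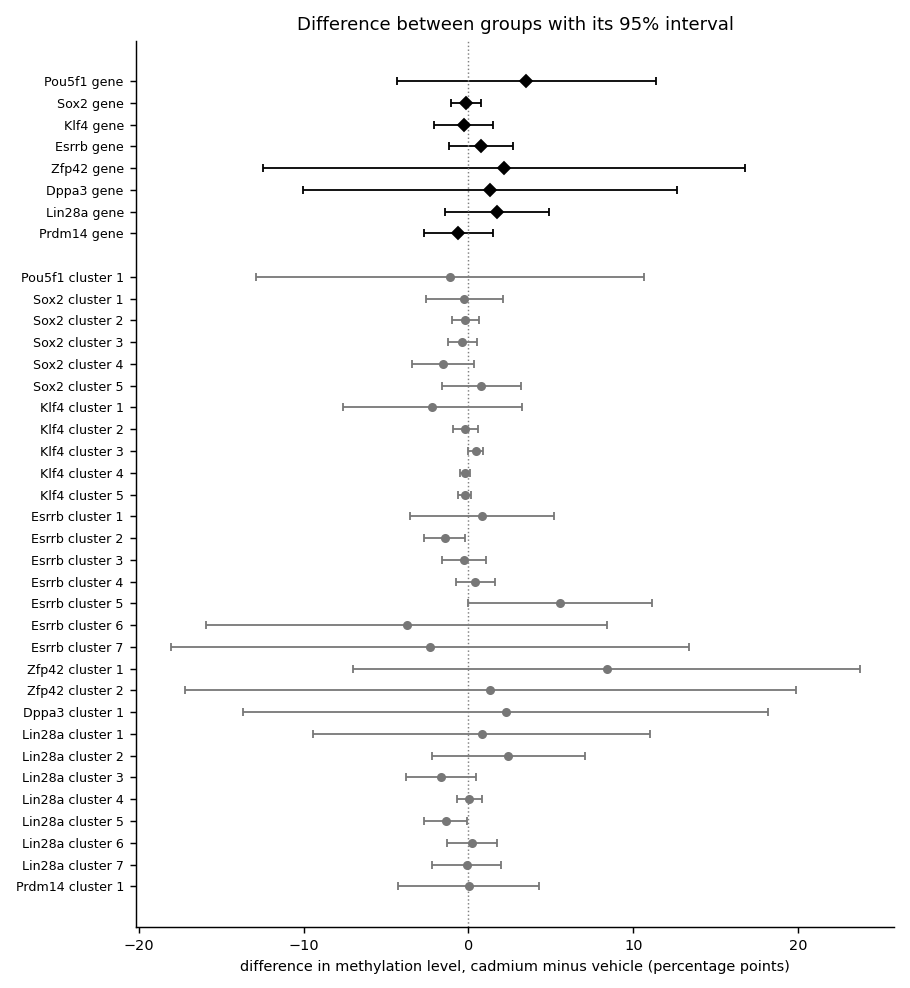
Difference in methylation level, cadmium minus vehicle (x axis, percentage points), for the 8 genes (diamonds, top) and their 29 CpG clusters (circles), with 95% intervals from 15 libraries per group. All 8 gene intervals include 0, the widest at Zfp42 from -12.4 to 16.8 points.

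Neighbouring CpGs were also tested as clusters of 3 or more, each 100 bp or less from the next. Of the 44897 clusters 0 passed, a percent_called of 0, and 0 of the 29 in these genes. At an unadjusted p under 0.05 there were 4 of the 29 in the logistic model, against 6.01% of all clusters, and 3 of the 29 in limma, which called 0, against 3.43% of all clusters. An Esrrb cluster on chromosome 12 at 86423548 to 86423740, where methylation climbs behind the inner start, stood at 27.8% ± 9.26 in cadmium and 22.2% ± 4.99 in vehicle libraries (5.55 points, -0.0191 to 11.1, adjusted p = 0.785). The other 3 clusters lay near 0. They were in Klf4 at 55531897 to 55532027 (0.471% ± 0.796 against 0.0410% ± 0.159, adjusted p = 0.498), in Esrrb at 86422513 to 86422528 (0.164% ± 0.446 against 1.60% ± 2.27, 0.679) and at the start of Lin28a at 134018766 to 134018806 (0.597% ± 1.44 against 1.97% ± 2.0, 0.654), cadmium first.

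At single CpGs, 7 of 416876 passed, a percent_called of 0.00168 (0.00072 higher and 0.00096 lower in cadmium mice), and 0 of the 235 in either direction. At an unadjusted p under 0.05 there were 19 of the 235 in the logistic model, or 8.09%, against 10.3% of all CpGs. In limma, which called 0 CpGs, 4 of the 235 were at that level, against 1.74% of all. The smallest adjusted p was 0.259, at a Sox2 CpG on chromosome 3 at 34650798 that was at 0% in every cadmium library and above 0% in 4 of 15 vehicle libraries (mean 1.40% ± 2.66). The 1243 reads of the cadmium libraries allow up to 0.241% there. At Lin28a the CpG with the smallest p was in the printed stretch, at 134018782, with 0% in every cadmium library (1259 reads, up to 0.238%) and 2.24% ± 4.15 in vehicle libraries (adjusted p = 0.271).

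The CpGs with the smallest p of the other genes did not pass either. In Esrrb, 1295 bases behind the outer start at 86362412, cadmium libraries stood at 93.7% ± 8.52 and vehicle libraries at 81.0% ± 17.2 (12.7 points, 2.56 to 22.9, adjusted p = 0.381). In Zfp42 at 43295696 they stood at 49.6% ± 23.7 and 32.1% ± 23.1 (17.4 points, -0.0820 to 34.9, adjusted p = 0.467), in the same order of groups. In Dppa3 at 122627685 they stood at 11.4% ± 12.3 and 6.02% ± 8.80 (adjusted p = 0.526), in Pou5f1 at 35506583 at 30.3% ± 15.1 and 36.6% ± 23.3 (adjusted p = 0.892), in Klf4 at 55532263 at 0% and 0.672% ± 2.60 (adjusted p = 0.391), and in Prdm14 at 13126299 at 0% and 0.317% ± 0.661 (adjusted p = 0.457).

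The libraries themselves differed along the mitochondrial share of coverage, and several of the genes moved with it. Each of the 8 genes was related to that share and to the maternal imprint level, 16 relations in all, by Pearson's r and Spearman's rho with permutation p (100000 resamples). Zfp42 rose with the mitochondrial share over the 30 libraries (r = 0.841, rho = 0.818, adjusted p = 5.33e-05 for both, from p = 1e-05, the smallest the resampling can give). Its r was 0.741 within cadmium and 0.899 within vehicle libraries, and 0.810 without vehicle libraries 12 and 13, the farthest from the median share. Of all genes, 0.627% had an r at least as high. That share was 2.50% for Dppa3, 6.40% for Sox2 and 13% for Pou5f1, and the share with an r at least as low was 6.82% for Klf4 and 21.4% for Lin28a.

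Dppa3 rose likewise (r = 0.750, rho = 0.733, adjusted p = 5.33e-05 for both), with r of 0.481 within cadmium and 0.878 within vehicle libraries and 0.730 without the same 2 libraries. Sox2 rose within its narrow range (r = 0.598, adjusted p = 0.00144; rho = 0.550, adjusted p = 0.00425), with r of 0.306 within cadmium, 0.765 within vehicle and 0.529 without the same 2 libraries. Klf4 went the other way (r = -0.627, adjusted p = 0.000608; rho = -0.693, adjusted p = 0.00024), with r of -0.547 within cadmium, -0.700 within vehicle and -0.558 without the same 2 libraries. Zfp42, Dppa3 and Klf4 related to the maternal imprint level in the same directions (r = 0.828, 0.719 and -0.563; rho = 0.790, 0.652 and -0.619; adjusted p of r 5.33e-05, 8e-05 and 0.00247), with r of 0.650, 0.352 and -0.450 within cadmium libraries and 0.916, 0.861 and -0.655 within vehicle libraries. Without vehicle libraries 4 and 13 r was 0.768, 0.590 and -0.445. Pou5f1 and Sox2 also rose with the imprint level by r (0.474 and 0.431, adjusted p = 0.0172 and 0.0257). By rho they passed too (0.423 and 0.437, adjusted p = 0.0368 and 0.0311). Their r was -0.135 and 0.142 within cadmium, 0.678 and 0.587 within vehicle and 0.338 and 0.350 without vehicle libraries 4 and 13. How common such values are among all genes was not counted for the imprint level.

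At Pou5f1 and Lin28a the relations to the mitochondrial share were weaker, with r = 0.388 and -0.388 (adjusted p = 0.0426 for both) and rho = 0.362 and -0.370 (adjusted p = 0.0741 and 0.072). Without vehicle libraries 12 and 13 r was 0.312 and -0.361. At Lin28a r was -0.185 within cadmium and -0.611 within vehicle libraries. At Pou5f1 r was -0.242 within cadmium and 0.670 within vehicle libraries, so the relation did not hold in the cadmium group. Prdm14 (r = 0.239, adjusted p = 0.235) and Esrrb (r = 0.0997, adjusted p = 0.605) did not pass with the mitochondrial share. With the imprint level Prdm14 passed by r (0.440, adjusted p = 0.0257) and not by rho (0.317, adjusted p = 0.111), and its r was 0.399 within cadmium, 0.486 within vehicle and 0.235 without vehicle libraries 4 and 13. Lin28a likewise passed with the imprint level by r (-0.390, adjusted p = 0.0426) and not by rho (-0.335, adjusted p = 0.0962). Its r was -0.179 within cadmium, -0.656 within vehicle and -0.169 without vehicle libraries 4 and 13. Esrrb did not pass (r = 0.165, adjusted p = 0.407). The Esrrb gene level rests on the 3 deep CpGs. The unweighted mean over its 55 CpGs fell with the mitochondrial share (r = -0.569, adjusted p = 0.00315; rho = -0.540, adjusted p = 0.00541, over 13 contexts), with r of -0.326 within cadmium, -0.752 within vehicle and -0.433 without vehicle libraries 12 and 13. What the mitochondrial share and the imprint level stand for in these libraries, and their part in these levels, was not tested. They did not differ between the groups by more than the spread given above.

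**Figure D4:**
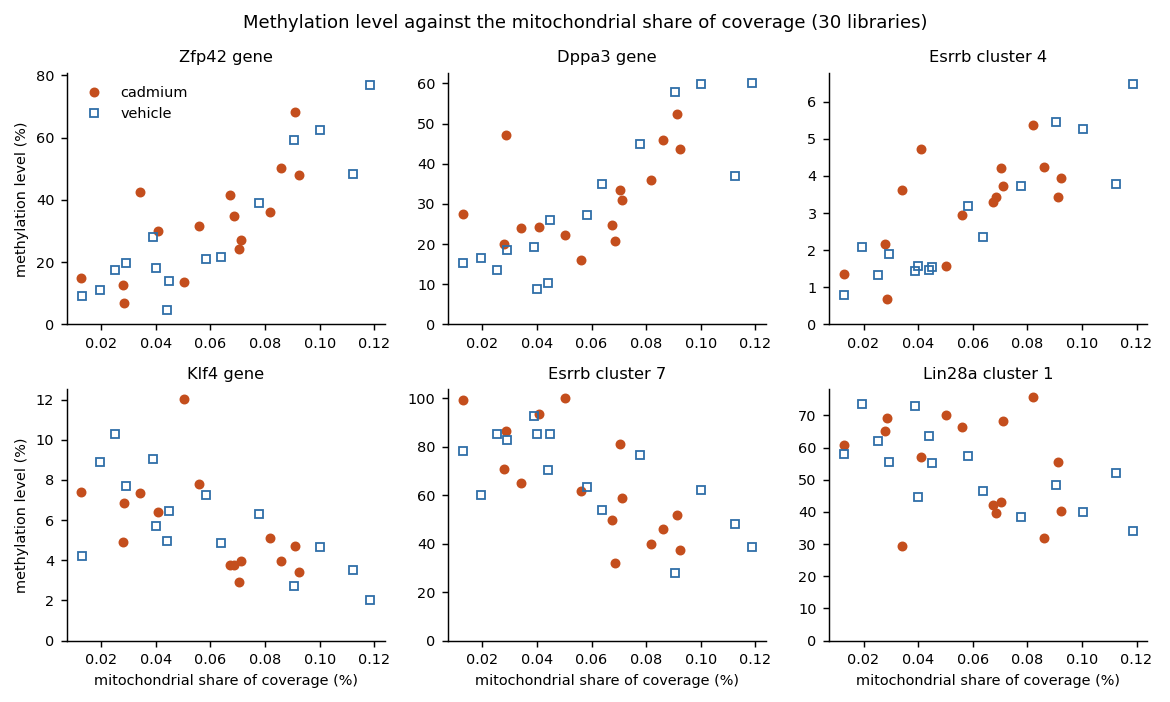
Methylation level (y axis, %) against the mitochondrial share of coverage (x axis, %) in 30 libraries, cadmium as filled circles and vehicle as open squares, for Zfp42, Dppa3 and Klf4 as genes and for 3 CpG clusters. The top row rises with the share (r = 0.841, 0.750 and 0.808) and the bottom row falls (r = -0.627, -0.707 and -0.476), in libraries of both groups.

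Within Esrrb the direction depended on the stretch, in an analysis of clusters and contexts of all the genes added after seeing the data. Of the 29 clusters, 9 passed at an adjusted p under 0.05, 7 rising and 2 falling with the mitochondrial share. Such values were common in the genome. Of 44847 clusters, 11.6% had an r at least as high as the weakest of the 7 (0.442) and 8.54% an r at least as low as the weaker of the 2 (-0.476). Only Esrrb held both kinds. The deeply covered cluster 1471 to 1626 bases behind its inner start, with a median of 5874 reads, ran from 0.685% to 5.37% in cadmium and from 0.791% to 6.48% in vehicle libraries and rose (r = 0.808, rho = 0.810, adjusted p = 7.25e-05 for both; r = 0.658 within cadmium, 0.903 within vehicle and 0.793 without vehicle libraries 12 and 13). The cluster at 86473592 to 86473638, deep inside the gene, ran from 32.1% to 100% in cadmium and from 27.7% to 92.4% in vehicle libraries and fell (r = -0.707, rho = -0.702, adjusted p = 7.25e-05 for both; r = -0.745, -0.714 and -0.677 in the same order).

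The other falling cluster was that of 5 CpGs inside Lin28a (r = -0.476, adjusted p = 0.0297; rho = -0.492, adjusted p = 0.0239; r = -0.269 within cadmium, -0.712 within vehicle and -0.437 without the 2 libraries). Besides Esrrb, rising clusters lay in Zfp42 (r = 0.626 and 0.814), Dppa3 (0.786), Pou5f1 (0.543), Prdm14 (0.547) and before the start of Sox2 (0.442). Those of Zfp42 lay at the end far from its start. Within cadmium libraries r was only 0.180 at the Pou5f1 cluster, 0.0760 at the Prdm14 cluster and 0.154 at the Sox2 cluster. Klf4 divided by context, with r = -0.705 over its CpGs inside the gene (rho = -0.727, adjusted p = 8.67e-05 for both over 13 contexts; -0.560 within cadmium, -0.784 within vehicle and -0.631 without the 2 libraries). Within 1 kb of its ends, where the level is near 0, r was -0.0167 (adjusted p = 0.936).

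**Figure D5:**
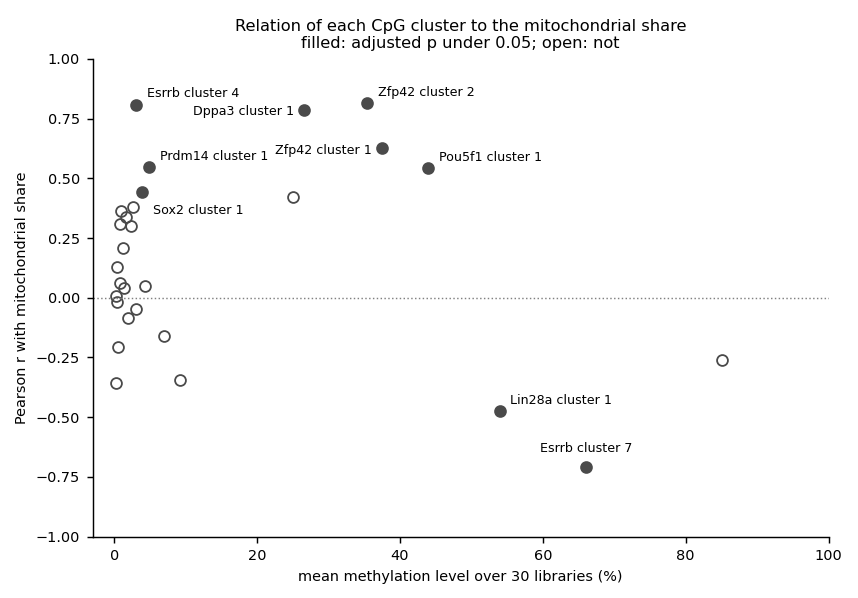
Pearson r of each of the 29 CpG clusters with the mitochondrial share over 30 libraries (y axis) by the cluster's mean methylation level (x axis, %), filled where the adjusted p was under 0.05. The 7 rising filled clusters average from 3.04% to 43.9%, and the 2 falling ones average 53.9% and 66.1%.

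As a description over CpGs that share libraries, all 12 partly methylated CpGs of Zfp42 and all 5 of Dppa3 had a positive r with the share. All 5 of Klf4, 6 of 7 of Lin28a and 6 of 9 of Esrrb had a negative r. Over all partly methylated CpGs of the genome, 56.5% had a positive r. Of the low CpGs, all 13 of Prdm14 had a positive r (median 0.246), as did 28 of 39 in Sox2 and 15 of 36 in Klf4, beside 54.1% of all low CpGs (median 0.0343).

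Levels of the genes also moved with each other, in 28 pairs related after seeing the data. The closest pair was Zfp42 and Dppa3 (r = 0.761, adjusted p = 0.00028; rho = 0.657, adjusted p = 0.00364; r = 0.429 within cadmium, 0.920 within vehicle and 0.678 without cadmium library 13 and vehicle library 13). Klf4 ran against Zfp42 (r = -0.527), Dppa3 (-0.512), Prdm14 (-0.507) and Sox2 (-0.490), each with an adjusted p from 0.0153 to 0.0214 (rho from -0.446 to -0.540, adjusted p from 0.0153 to 0.0498), and within each group the sign was the same. Without the 2 farthest libraries r was -0.511, -0.496, -0.311 and -0.470 for these 4 pairs, so that of Klf4 with Prdm14 rests in part on those libraries. Pou5f1 and Dppa3 rose together over all libraries (r = 0.565, adjusted p = 0.0117; rho = 0.564, adjusted p = 0.0128; r = 0.454 without 2 libraries) and in vehicle libraries (r = 0.761), but not in cadmium libraries (r = 0.0319). This difference between the groups was not tested. Sox2 rose with Zfp42 (r = 0.570, adjusted p = 0.0117, rho = 0.579, adjusted p = 0.0128) and with Dppa3 (r = 0.538, adjusted p = 0.0153, rho = 0.503, adjusted p = 0.0201). Within cadmium r was 0.344 and 0.215, and within vehicle 0.708 and 0.701. Pou5f1 with Zfp42 (r = 0.436) and Lin28a with Zfp42 (r = -0.439) passed by r (adjusted p = 0.0456 for both) and not by rho (0.0836 for both). How common such pairs are among all genes was not counted.

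For the genes with the largest SD, the genes of the genome with the most similar level over the 30 libraries were listed, among about 20364 genes with 3 or more CpGs. Closest to Zfp42 were Apobec3, which encodes a cytidine deaminase (r = 0.948, 7 CpGs, 32.2% ± 11.7 in cadmium and 29.1% ± 16.5 in vehicle libraries), and Gm38666 and Gm38667, which share their 275 CpGs (r = 0.944). Closest to Dppa3 were Gm973 (r = 0.873), Alpk3 (0.863) and Gm16064 (0.850). Closest to Pou5f1 were Gm16976 (r = 0.690), P2ry6 (0.685) and Gm36744 (0.685). These were picked as the highest of many and carry no test.

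No other gene of the pluripotency network passed. Of 31 measured genes of a list of 35 names, 0 passed in either direction, in the logistic model or in limma, beside a percent_called of 0 over all genes. The level was higher in cadmium mice at 22 and lower at 9, with a median difference of 0.240 points, beside 14096 higher, 10000 lower and a median of 0.177 points over all genes. At an unadjusted p under 0.05 there were 2 genes in the logistic model and 1 in limma, against 4.86% and 3.68% of all genes. Utf1, a chromatin-bound factor of embryonic stem cells, stood at 12.6% ± 4.57 in cadmium and 8.97% ± 4.00 in vehicle libraries (adjusted p = 0.906). Dppa2, a chromatin protein of the early embryo, stood at 98.6% ± 2.82 and 92.7% ± 11.8, and Lifr, a subunit of the LIF receptor, at 47.8% ± 4.31 and 43.8% ± 7.11 (adjusted p = 1 for both), in the same order of groups.

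Of 22 genes of primed pluripotency and germ cell specification, 20 were measured and 0 passed in either model, with 10 higher and 10 lower in cadmium mice and a median difference of 0.0229 points. At an unadjusted p under 0.05 there was 1 gene of the 20 in each model, against the same 4.86% and 3.68% of all genes. The smallest p was at Pou3f2, a neural transcription factor gene, with 1.49% ± 0.735 in cadmium and 0.914% ± 0.410 in vehicle libraries (adjusted p = 0.841). Nodal, a TGF-beta family ligand of the epiblast, stood at 8.92% ± 4.61 and 6.46% ± 4.20, and Fgf5, a marker of the primed epiblast, at 1.45% ± 0.824 and 1.15% ± 0.700 (adjusted p = 1 for both), cadmium first. Of the 20, 17 averaged under 20%, as did 20 of the 31 network genes.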

How the data were processed

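Sperm DNA of 30 mice was measured by RRBS. Per the submitters' processing notes, the builds were mm10 and GRCm38 and the tools were methylKit 1.12.0, Bismark 0.22.3, Trim Galore 0.5.0 and bcl2fastq, whose roles those notes leave unstated here. For each cytosine and strand the authors deposited the fraction methylated and a read count. Their product, rounded, served as the methylated reads. It lay within 0.1 of a whole number except at 1 cytosine or fewer in a library. Strands were summed. Limits from counts cover counting error only, since copies made by PCR were not told apart and CpGs of one fragment share reads.

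Groups were compared with an F test in a logistic model of methylated reads, its Pearson dispersion held at 1 or more, with Benjamini-Hochberg adjustment over all CpGs, all clusters or all 24122 genes and calls at 0.05. In limma 3.58.1 (R 4.3.3) percent methylation was tested instead. Differences are between unweighted group means, with 95% intervals. Python 3.11.15 with numpy 2.4.6, scipy 1.17.1 and pandas 2.3.3 was used. Gene positions came from RefSeq on GRCm38.p6, without exons and, for Dppa3, Dppa5a and Prdm14, without strand. Maternal imprint levels are means over windows of 1 kb either side of 12 gene ends averaging under 20%, of which Peg3 and Usp29 share CpGs. The windows were not placed on the imprints themselves. For H19 the stretch 2000 to 4000 bp past the end on the Igf2 side was used.

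The members and lists were chosen with earlier results of these data known. Named were all members, every cluster in the text's counts, for each gene the CpG with the smallest p, the lowest and the highest level, the 3 smallest p of each list, and the 3 most similar genes of the 3 most variable members. On simulated reads over 24122 genes, 63% of 100 genes changed by 10 points and 85% of 100 changed by 20 points were called, and 23 unchanged genes were called. Alternatives were other coverage minima, windows, gaps, strands, tests, covariates, levels and leaving out each library. The labels name 1 mouse per library and no batch.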

Additional observations from a re-analysis of the deposited data

How the results depend on the processing

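The counts of called CpGs, clusters and genes among the members were 0 under all 14 alternatives and without each library in turn, by the tests run. Adjusted p values were kept for 58 members, the genes, the clusters and the named CpGs. The smallest of them was 0.241 among these settings and 0.173 without a library. Over the whole table the 7 called CpGs became 2 with 20 reads, 0 in limma and 1 with a minimum difference of 10 points, and 2 to 15 without a library. The 0 called clusters became 1 with 10 reads in 10 libraries per group, 2 with gaps up to 300 bp, and 0 to 15 without a library (15 without cadmium library 8, 5 without vehicle library 4). The 0 called genes became 1 with 10 kb flanks and 0 to 2 without a library (2 without vehicle library 11). None of these was a member. None of the differences below had passed a test, so their signs are not calls, and the cause of each change was not tested.

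Signs differed as follows, in points, cadmium minus vehicle. With 5 reads Prdm14 cluster 1 was at -0.0409. With 20 reads Sox2 cluster 1 was at 0.166, Lin28a cluster 1 at -0.846 and the Klf4 gene at 0.0750. With 10 reads in 10 libraries per group Sox2 cluster 1 was at 0.371, Klf4 cluster 2 at 0.227, Esrrb cluster 1 at -0.972, Esrrb cluster 2 and Esrrb cluster 3, then merged, at 0.364, Dppa3 cluster 1 at -0.0353, Prdm14 cluster 1 at -0.0383, the Klf4 gene at 0.0920 and the Dppa3 gene at -0.117. With 10 kb flanks the Pou5f1 gene was at -0.408 and the Sox2 gene at 0.149. With gaps up to 300 bp Klf4 cluster 4 was at 0.00696, Esrrb cluster 1 at -1.02, Esrrb cluster 2 and Esrrb cluster 3 at 0.655, Lin28a cluster 3 at 0.0954 and Prdm14 cluster 1 at -0.577. With total coverage as a covariate in limma Lin28a cluster 7 was at 0.421 and Prdm14 cluster 1 at -0.789. As unweighted means in limma Sox2 cluster 1 was at 0.0750, Sox2 cluster 5 at -0.0714, Esrrb cluster 3 at 0.0877, Lin28a cluster 4 at -0.134, the Pou5f1 gene at -1.91 and the Esrrb gene at -0.00992.

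Without a library the range was -0.211 to 3.44 at the Dppa3 gene, -0.742 to 0.0270 at the Klf4 gene, -0.296 to 0.0344 at the Sox2 gene and -0.414 to 5.53 at the Zfp42 gene. The sign held at the Pou5f1 gene (1.97 to 4.67), the Esrrb gene (0.182 without vehicle library 15, to 1.13), the Lin28a gene (1.16 to 2.35) and the Prdm14 gene (-0.987, to -0.244 without cadmium library 1). Among clusters it was -5.17 to 0.00184 (Esrrb cluster 7), -0.382 to 0.0209 (Klf4 cluster 2), -0.734 to 2.58 (Lin28a cluster 1), -0.157 to 0.264 (Lin28a cluster 4), -0.203 to 0.401 (Lin28a cluster 6), -0.481 to 0.507 (Lin28a cluster 7), -3.46 to 1.11 (Pou5f1 cluster 1), -0.875 to 0.992 (Prdm14 cluster 1), -0.722 to 0.0918 (Sox2 cluster 1) and -1.82 to 4.71 (Zfp42 cluster 2). Among CpGs it was -1.46 to 1.04 (Esrrb CpG 86455575), -4.31 to 2.71 (Klf4 CpG 55530066), -4.34 to 0.256 (Pou5f1 CpG 35508516) and -1.22 to 4.32 (Zfp42 CpG 43306128).

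The labels do not say whether replicate numbers shared by the groups pair mice. The rule used, that every pair correlate above 0.1, was not met, but it is strict and cannot exclude pairing. Only 6 of 15 pairs passed 0.1, the range being -0.269 to 0.694, and 2 libraries correlated best with the one of their own number. The mean correlation was 0.113 for libraries of the same number and -0.00668 for those of other numbers. What this difference stands for was not tested. The replicate block in limma left 0 CpGs, 0 clusters and 0 genes called among the members. As every number is in both groups, the block cannot change a difference of group means. The Pou5f1 gene thus stayed at 3.5 points by design. Depth limits the starts of Sox2, Esrrb and Pou5f1, where CpGs had 10 reads in fewer than 30 libraries. Why no Nanog CpG was listed in 20 libraries was not tested.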
